A study of Homo sapiens with 24 samples.

Results

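The 6 libraries of untreated LOUCY cells, 3 from experiment 1 and 3 from experiment 2, were compared across all 15862 genes of the deposited table. They were chosen by their labels alone (LOUCY, untreated, experiment 1 or 2) and are 6 of the 24 RNA-seq libraries of the series. LOUCY and JURKAT are established human leukaemia cell lines, grown in RPMI-1640 medium with serum and antibiotics. The cells of the 6 libraries received neither solvent nor drug. The other libraries used here were 6 of untreated JURKAT (3 per experiment) and 12 of LOUCY kept for 24 h with 0.05% DMSO, 250 nM of the BET inhibitor JQ1 or 500 nM of the BET inhibitor I-BET151 (2 per treatment and experiment). The labels give no time in culture, passage or cell density for untreated cells. The experiment number and any other difference in culture, library preparation or sequencing between the experiments cannot be told apart. Whether replicates of an experiment were separate cultures is not in the labels. The p-values therefore reflect only how far the sequenced libraries varied, which may be technical.

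LOUCY is a T-cell acute lymphoblastic leukaemia line of the early T-cell precursor kind, which keeps stem and progenitor transcription factors beside a T-cell receptor complex. A cultured line at rest still divides, makes cholesterol and ribosomes and reads out stress through transcription factors. Among these, p53 responds to DNA damage and other stress by switching on genes that halt the cell cycle, repair DNA or start cell death. The liver X receptors (LXR) respond to oxidised cholesterol by switching on genes that export cholesterol or reduce its uptake.

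Values are RPKM, reads scaled to gene length and library size, so levels of different genes can be compared per length. Each of the 6 libraries held between 4656857 and 6601302 reads in listed genes, and the 24 libraries between 4381134 and 7074198. In experiment 1 the 3 libraries were alike, with pairwise correlations of 0.990 to 0.992 across genes. In experiment 2 the pairwise correlations were 0.972 to 0.990, and between the experiments 0.962 to 0.987. The median SD of log2(RPKM + 1) within an experiment was 0.11 in experiment 1 and 0.194 in experiment 2, and 71.37% of tested genes varied more in experiment 2. Replicate 3 of experiment 2 stood apart from its group. Its mean absolute log2 distance from the experiment 1 mean was 0.194, against 0.318 for replicate 1 and 0.397 for replicate 2.

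Libraries also differed in how values moved with the GC content of genes. The slope of a library's log2 deviation from the mean of its line and treatment was 0.138, 0.101 and 0.061 log2 per 10 percentage points of GC in replicates 1, 2 and 3 of experiment 1. In experiment 2 it was -0.124, -0.227 and 0.051. Replicates 1 and 2 of experiment 2 thus lay below all of experiment 1, and replicate 3 lay close to replicate 3 of experiment 1. Medians from a fit with each library's GC trend removed are given beside the medians of gene groups.

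**Figure D1:**
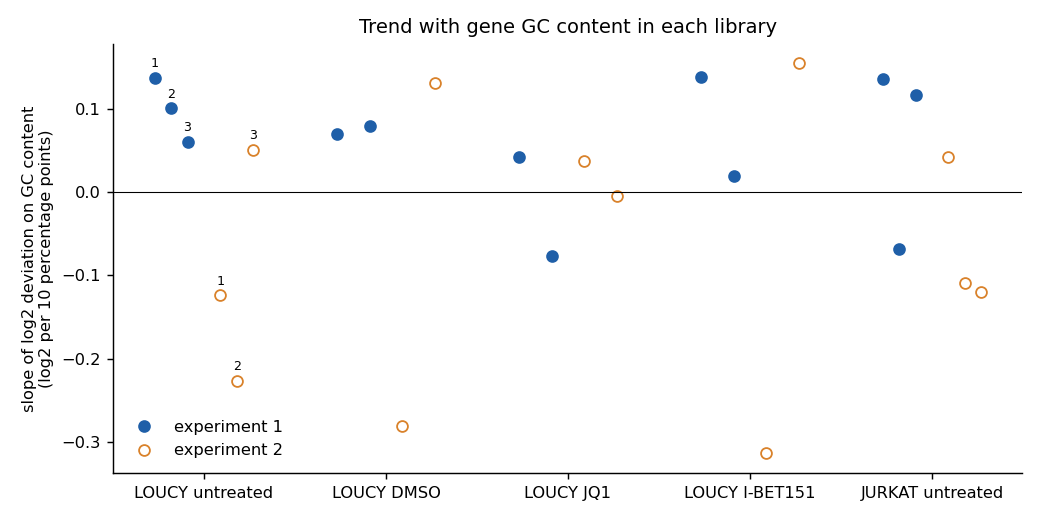
Slope of each library's log2 deviation from the mean of its line and treatment on gene GC content, in log2 per 10 percentage points (vertical axis), for the groups on the horizontal axis; filled points are experiment 1, open points experiment 2, and numbers mark the replicates of untreated LOUCY. Untreated LOUCY replicates 1 and 2 of experiment 2 lie at -0.124 and -0.227, below the other 4 untreated LOUCY libraries.

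At rest, LOUCY put most of its message into few genes. Genes with a mean of at least 1 RPKM numbered 10924, or 68.87% of those listed. The 916 genes at 100 RPKM or more held 63.55% of the summed RPKM, and the 40 genes at 1000 or more held 19.65%. The 10 highest were the actin gene ACTB (mean over 6 libraries 8888 RPKM), the interferon-induced membrane protein gene IFITM1 (8327), the actin-binding thymosin TMSB4X (8209), the surrogate light chain gene IGLL1 (4562) and the glutathione transferase GSTP1 (3793), followed by B2M (3605), IFITM2 (3231), ARHGDIB (3138), GAPDH (3100) and the histone variant H2AFZ (2492). Lists of actin cytoskeleton genes, cytosolic ribosomal proteins and oxidative phosphorylation genes held 5.928%, 3.888% and 2.524% of the summed RPKM.

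The cells carried the markers of their line in both experiments. All 10 LOUCY identity genes were present in the 6 libraries, with a summed level of 7234 to 8804 RPKM in experiment 1 and 6206 to 6528 in experiment 2. Among them the ETS factor ERG stood at 20.2 to 23.8 RPKM and the homeobox gene HOXA9 at 17.8 to 24.9 RPKM. The 8 JURKAT identity genes, including EZH2, MYC, TAL1 and CD2, were under 1 RPKM in all 6 libraries, and their sum was 1.32 to 1.87 RPKM against 1908 to 2390 RPKM in JURKAT. Both identity sets were picked to tell the lines apart, so their contrast between LOUCY and JURKAT is not a finding. T-cell markers summed to 2198 to 2395 RPKM in experiment 1 and 1846 to 1965 in experiment 2, led by the T-cell receptor subunit CD3D (1359 to 1740 RPKM). Among B-cell markers, CD79A stood at 328.9 to 583.1 RPKM, while MS4A1 did not exceed 0.768 RPKM. Myeloid markers summed to 21.1 to 27.5 RPKM in experiment 1 and 28.7 to 34.4 in experiment 2, mostly from the lysozyme gene LYZ. The 1 of 4 erythroid markers in the table did not exceed 0.371 RPKM, and the 4 of 6 fibroblast and epithelial markers in the table did not exceed a sum of 0.928 RPKM. In bulk samples, fewer cells of a type and less RNA per cell cannot be told apart.

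Between the experiments, 73 of 10993 tested genes (0.664%) differed in untreated LOUCY, 43 higher in experiment 1 (0.391%) and 30 lower (0.273%), by limma on log2(RPKM + 1) with a Benjamini-Hochberg adjusted p under 0.05. Differences are given throughout as experiment 1 minus experiment 2. An unadjusted p under 0.05 was found for 3378 genes (30.73%), and the median difference over all tested genes was 0.04 on the log2 scale. The 3 libraries of experiment 1 all lay above those of experiment 2 for 2147 genes (19.5%) and all below for 1517 (13.8%). Among genes past the threshold, small RNAs left aside, the largest difference upward was that of the cell-cycle inhibitor CDKN1A. The largest downward was that of the cholesterol exporter ABCA1, which reached 1 RPKM only in experiment 2. The small RNAs SNORD23 (log2 2.66), MIR4712 (-3.27) and MIR8078 (-2.22), named after their values were seen, passed with larger differences. The count rested on single libraries. It was 0 without replicate 1 of experiment 1, 10 and 4 without replicates 2 and 3, 6 and 12 without replicates 1 and 2 of experiment 2, and 4688 without replicate 3 of experiment 2. With the GC trend removed it was 269 (144 higher and 125 lower), of which 65 were among the 73. The share of calls that were higher in experiment 1 was 58.9%, and it fell to 49.04% with library medians set equal and to 46.97% with quantile normalization.

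**Figure D2:**
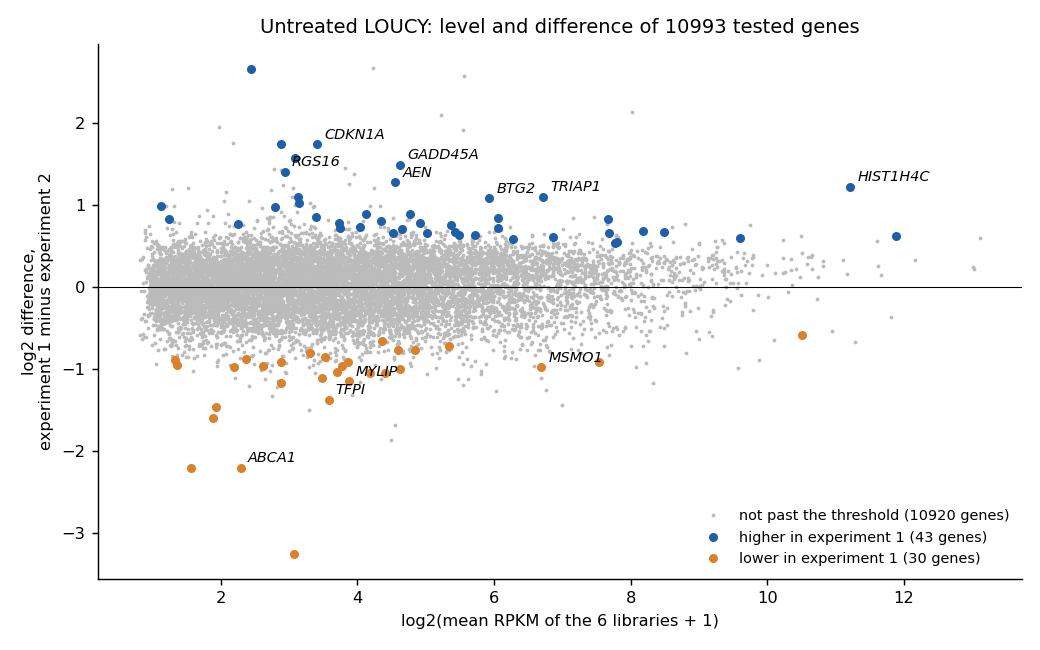
Each point is 1 of the 10993 tested genes, with log2 of the mean RPKM of the 6 untreated LOUCY libraries plus 1 on the horizontal axis and the log2 difference between the experiments on the vertical axis. The 43 genes past the threshold and higher in experiment 1 are blue, with CDKN1A at 1.74 and HIST1H4C at 1.22, and the 30 lower ones are orange, with ABCA1 at -2.21.

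Several p53 targets were higher in experiment 1. CDKN1A (chromosome 6, 36676460 to 36687339 on GRCh38) encodes p21, the inhibitor of cyclin-dependent kinases that halts the cell cycle. It stood at 15.2, 16.8 and 13.9 RPKM in the 3 libraries of experiment 1 and at 3.86, 3.02 and 4.89 in those of experiment 2. The lowest library of experiment 1 was above the highest of experiment 2, and the log2 difference was 1.74 (SE 0.16, limma adjusted p = 0.00658).

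GADD45A, a growth arrest gene induced by DNA damage, stood at 38.4, 36.8 and 30.3 RPKM in experiment 1 and 11.4, 15.8 and 9.11 in experiment 2 (log2 difference 1.49, SE 0.18, limma adjusted p = 0.0209). The exonuclease gene AEN stood at 31.2, 32.2 and 32.9 RPKM against 11.2, 10.7 and 16.8 (log2 1.28, SE 0.16). TRIAP1, which encodes a small p53-regulated inhibitor of apoptosis, stood at 140.9, 146.4 and 142.4 RPKM against 62.8, 68.4 and 67.8 (log2 1.10, SE 0.09). The groups of these genes did not overlap. The antiproliferative gene BTG2 likewise separated the experiments, at 78.4, 82.3 and 84.0 RPKM against 38.8, 30.01 and 46.9 (log2 1.08, SE 0.15, limma adjusted p = 0.0262).

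Of 30 listed p53 targets, 28 were in the table and 27 were tested. The 5 above rose in experiment 1 relative to experiment 2 and 0 fell, beside 0.391% and 0.273% of all tested genes. The median log2 difference of the 27 was 0.40, against 0.04 for all tested genes, and it was 0.24 with the GC trend removed. In 13 of them the libraries of experiment 1 all lay above those of experiment 2, and in 3 all below, beside 19.5% and 13.8% of all tested genes. The pro-apoptotic BAX stood at a mean of 7.50 against 4.08 RPKM, the repair gene DDB2 at 52.0 against 35.6 and the stress gene SESN1 at 24.0 against 15.5, none of them past the threshold. Other textbook p53 targets did not share the direction. MDM2, the ubiquitin ligase that limits p53, stood at 28.8, 33.7 and 36.9 RPKM against 35.01, 45.9 and 23.9. CCNG1 had a log2 difference of -0.74 and PMAIP1 of -0.42, and neither passed the threshold (limma adjusted p = 0.0847 and 0.154).

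**Figure D3:**
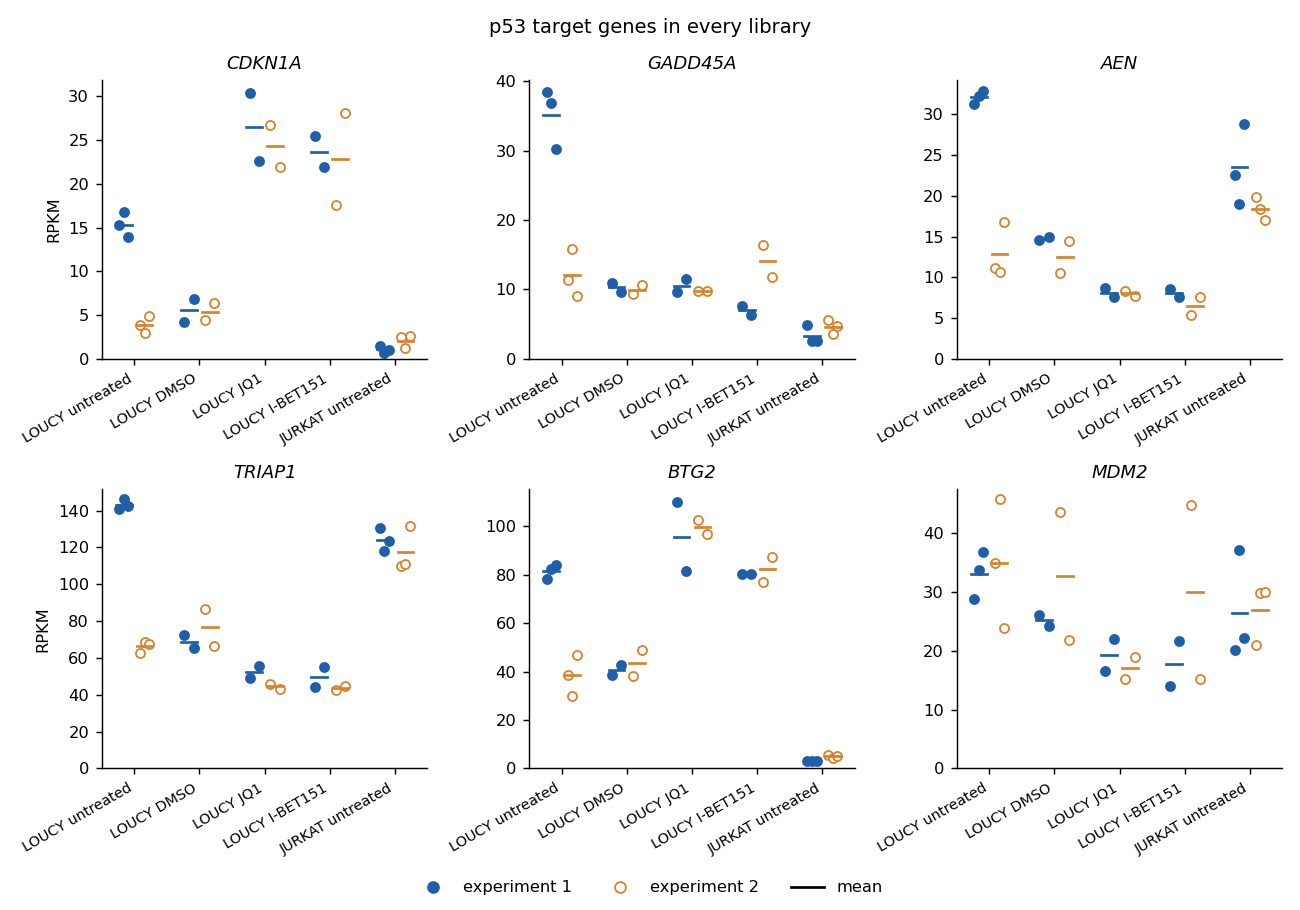
RPKM (vertical axis, starting at 0) of 6 p53 target genes in every library of the groups on the horizontal axis; filled points are experiment 1, open points experiment 2, and bars are means. In untreated LOUCY, CDKN1A, GADD45A, AEN, TRIAP1 and BTG2 are higher in all 3 libraries of experiment 1, while MDM2 overlaps, and in DMSO the CDKN1A means are 5.55 and 5.39 RPKM.

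Promoter sequence was examined for the p53 targets and for the genes with the largest differences, using RefSeq windows of the 250 bases before a gene's start (GRCh38.p14). The p53 response element, taken as a pair of adjacent half-sites without a spacer, both cores exact and at most 3 mismatches elsewhere, was found in 93 of 27303 promoter windows (0.341%). Of the 30 p53 targets, 25 had a window and 2 held a match, AEN and RPS27L. Of the 5 that passed the threshold, 4 had a window and 1 held a match. The AEN window (chr15:88621090-88621339, plus strand) is shown because this gene both passed the threshold and held the element, which is in capitals, begins 34 bases before the start and has 2 mismatches.
AEN promoter: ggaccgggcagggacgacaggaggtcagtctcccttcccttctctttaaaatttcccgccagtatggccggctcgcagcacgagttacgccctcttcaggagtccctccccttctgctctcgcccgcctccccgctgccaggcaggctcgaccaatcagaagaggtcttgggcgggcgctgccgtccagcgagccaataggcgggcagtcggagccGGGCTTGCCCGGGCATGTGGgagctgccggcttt
The windows of CDKN1A, TRIAP1 and BTG2 held no match, which says only that these letters are not within 250 bases before the start.

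A pair of genes of cholesterol handling were lower in experiment 1. ABCA1 (chromosome 9, 104781002 to 104928237), which exports cholesterol from the cell and is a known LXR target, was low in experiment 1. It stood at 0.609, 0.678 and 0.691 RPKM there and at 6.84, 10.7 and 3.88 RPKM in experiment 2. The groups did not overlap, and the log2 difference was -2.21 (SE 0.27, limma adjusted p = 0.0209). ABCA1 reached the filter of 1 RPKM only in experiment 2. It thus entered the test through the group where it was high, and its p-value is not independent support for the difference. On the log2(RPKM + 1) scale this understates the change of a gene so low. MYLIP, another known LXR target, encodes a ubiquitin ligase that reduces cholesterol uptake. It stood at 8.11, 8.63 and 7.59 RPKM against 19.6, 19.4 and 18.5, with no overlap (log2 -1.15, SE 0.11, limma adjusted p = 0.00658).

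Values of further LXR-linked genes, chosen after values were seen, did not share 1 direction. The exporter ABCG1 stood at a mean of 12.9 ± 1.74 against 19.1 ± 0.845 RPKM (SD, n = 3 each; limma adjusted p = 0.0674) and the lipogenic factor SREBF1 at 2.00 ± 0.0792 against 2.79 ± 0.697. The receptor genes themselves were NR1H3, at 3.03 ± 0.0492 against 1.78 ± 0.454 RPKM, and NR1H2, at 23.8 ± 2.75 against 18.3 ± 5.14 RPKM. None of these 4 passed the threshold.

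The ABCA1 window (chr9:104928156-104928405, minus strand) is shown because it held a match to the direct repeat bound by LXR, a pair of AGGTCA half-sites in 1 orientation with 4 bases between them, on either strand with at most 2 mismatches. The match is in capitals and begins 69 bases before the start, and 2.08% of the 27303 windows held one. The MYLIP window held none.
ABCA1 promoter: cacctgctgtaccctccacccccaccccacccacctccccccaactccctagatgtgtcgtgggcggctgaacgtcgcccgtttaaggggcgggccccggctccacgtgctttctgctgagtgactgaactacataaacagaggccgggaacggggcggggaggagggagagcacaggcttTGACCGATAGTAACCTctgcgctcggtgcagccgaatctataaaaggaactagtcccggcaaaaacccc

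In the list of cholesterol synthesis and uptake genes, 1 of 23 tested members passed the threshold, lower in experiment 1, beside 0.273% of all tested genes. MSMO1, a sterol methyl oxidase of the pathway, stood at 63.7, 68.1 and 71.0 RPKM in experiment 1 and 136.8, 167.7 and 105.3 in experiment 2 (log2 -0.98, SE 0.16, limma adjusted p = 0.0343). In 9 members experiment 1 lay wholly below experiment 2 and in 1 wholly above, beside 13.8% and 19.5% of all tested genes. HMGCS1, the synthase at the entry of the pathway, had means of 34.7 against 68.9 RPKM (limma adjusted p = 0.0766), the sterol sensor INSIG1 74.9 against 127.7 (0.06) and the transfer protein gene STARD4 7.17 against 14.5 (0.0518). The median of the list was -0.07 on the log2 scale and -0.17 with the GC trend removed, but 0.025 without replicate 3 of experiment 2.

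Histone and cell-cycle genes followed. The histone H4 gene HIST1H4C stood at 3600, 3423 and 2920 RPKM in experiment 1 and 1654, 1319 and 1302 in experiment 2, without overlap (log2 1.22, SE 0.13, limma adjusted p = 0.00825). HIST1H2AH stood at 12.9, 9.12 and 13.2 RPKM against 4.50, 2.70 and 2.75 (log2 1.57, limma adjusted p = 0.0209). The variant H2AFZ lay the other way, at 1921, 1895 and 1805 RPKM against 3259, 4086 and 1983, and did not pass the threshold (log2 -0.67, limma adjusted p = 0.0994). Histone genes are short and near-identical to one another, and canonical histone messages lack the poly(A) tail by which these libraries were primed, so their levels are uncertain. Of 19 tested genes in the histone list, which does not hold HIST1H2AH, HIST1H4C alone passed the threshold, beside 0.391% of all tested genes called higher. The list median was 0.34 (0.18 with the GC trend removed).

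Replication and mitosis genes showed opposite medians, with 0 members of either list past the threshold. Among 28 S-phase genes the median was 0.31 (0.24 with the GC trend removed), and experiment 1 lay wholly above experiment 2 in 18 and wholly below in 0. Over all tested genes these shares were 19.5% and 13.8%. The replicative helicase subunit MCM7 had means of 157.9 against 97.7 RPKM (limma adjusted p = 0.0518) and MCM5 of 182.8 against 118.6. Among 29 genes of G2 and mitosis the median was -0.20 (-0.14 with the GC trend removed), with 3 wholly above and 13 wholly below. The mitotic kinase CDK1 stood at 147.5 against 252.2 RPKM, and its partner CKS2 at 638.3 against 1234 RPKM. The proliferation marker MKI67 lay the other way, at 20.2 against 15.8 RPKM. Outside untreated LOUCY the 2 lists did not have opposite medians. In treated LOUCY the medians were 0.195 for S-phase genes and 0.177 for G2 and mitosis genes. In untreated JURKAT they were 0.14 and 0.043.

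Growth and metabolism lists had positive medians, again with few members past the threshold. Their counts of members wholly above or below stand beside 19.5% and 13.8% of all tested genes. Members past the threshold stand beside 0.391% called higher and 0.273% called lower. Cytosolic ribosomal proteins had a median of 0.34, with 25 of 40 wholly above and 0 below, and 0 past the threshold. Against replicates 1, 2 and 3 of experiment 2 taken singly this median was 0.31, 0.50 and 0.17. Nucleolar and growth genes had a median of 0.34 (15 of 28 wholly above, 1 below, 0 past the threshold), actin cytoskeleton genes 0.32 (13 of 23 above, 2 below, 0 past) and oxidative phosphorylation genes 0.19 (13 of 30 above, 1 below, 0 past). Glycolysis genes had a median of 0.27, with 13 of 23 wholly above and 0 below. In that list the glucose transporter SLC2A1 passed the threshold, at 36.7, 38.7 and 35.8 RPKM against 20.3, 18.5 and 25.3 (log2 0.78, limma adjusted p = 0.0362). With the GC trend removed the medians were 0.23 for ribosomal proteins, 0.21 for nucleolar genes, 0.10 for actin genes, 0.13 for oxidative phosphorylation and 0.09 for glycolysis. The interferon response list had a median of -0.16 (-0.19 with the GC trend removed), with 2 of 24 wholly above, 9 below and 0 past the threshold. Its sensor IFIH1 stood at 4.41 against 8.63 RPKM.

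**Figure D4:**
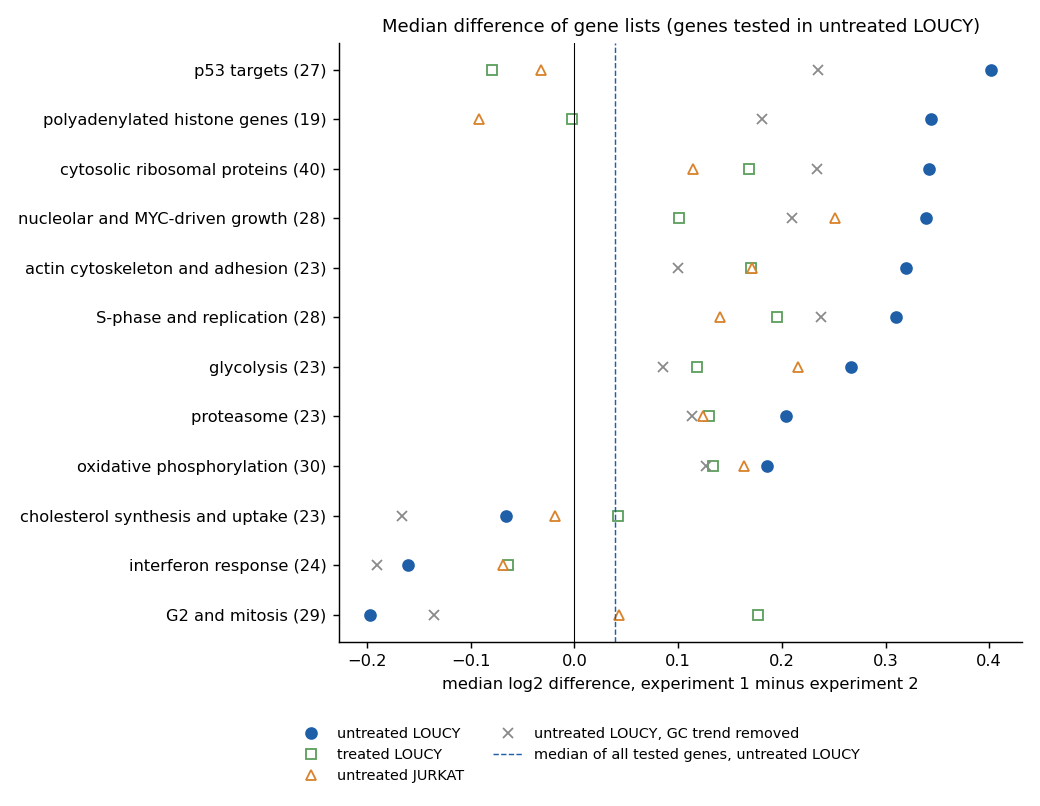
Median log2 difference between experiments 1 and 2 (horizontal axis) of 12 gene lists (vertical axis, with the number of genes tested in untreated LOUCY), for untreated LOUCY, treated LOUCY, untreated JURKAT and untreated LOUCY with the GC trend removed; the dashed line is the median of all tested genes in untreated LOUCY. The p53 targets have a median of 0.40 in untreated LOUCY and 0.24 with the GC trend removed, and lie at -0.08 in treated LOUCY and -0.03 in JURKAT.

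Metal and stress response genes contributed a few members. The metallothionein genes MT1X and MT2A, whose products bind zinc and copper, stood at 88.3, 89.5 and 76.7 against 50.3, 43.4 and 47.1 RPKM and at 273.5, 279.9 and 224.0 against 177.0, 141.1 and 122.4 RPKM. Both separated the experiments (log2 0.84 and 0.82, limma adjusted p = 0.0209 and 0.0473). With the GC trend removed MT1X passed (0.64, limma adjusted p = 0.0227) and MT2A did not (0.62, 0.0677). In the main fit MT1X and MT2A were 2 of 9 tested metal response genes, beside 0.391% of all tested genes called higher. DDIT4, which restrains mTORC1 signalling under stress, stood at 258.7, 257.1 and 235.3 RPKM against 147.1, 148.8 and 180.1 (log2 0.66, limma adjusted p = 0.0356). It was the only 1 of 20 tested integrated stress response genes to pass, beside 0.391% of all tested genes called higher. The glucocorticoid-induced gene TSC22D3 and the cold-inducible RNA-binding protein gene RBM3 were chosen after their values were seen. TSC22D3 stood at 442.8, 437.0 and 438.7 RPKM against 261.7, 288.8 and 275.8 (log2 0.67, limma adjusted p = 0.0209). RBM3 stood at 50.1, 52.7 and 50.4 RPKM against 29.6, 29.8 and 29.98 (log2 0.76, limma adjusted p = 0.0209).

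Among signalling genes, RGS16, a brake on G protein signalling, stood at 10.9, 11.04 and 8.59 RPKM against 3.36, 3.004 and 3.20 (log2 1.41, SE 0.14, limma adjusted p = 0.00658). Its relative RGS2 lay the other way, at 16.9, 16.9 and 12.4 RPKM against 34.2, 36.7 and 25.2 (log2 -1.01, limma adjusted p = 0.0384). The cytokine gene CSF1, which sustains macrophages, had means of 34.3 ± 1.66 against 18.2 ± 2.88 RPKM (SD, n = 3 each), and the adhesion receptor CEACAM1 10.8 ± 0.405 against 4.61 ± 1.16. SMG6, a nuclease of nonsense-mediated decay, and RTN4R, a receptor for myelin proteins, were higher in experiment 1 by 1.03 and 0.88 on the log2 scale. Lower in experiment 1 were the coagulation inhibitor TFPI (log2 -1.38), LYSMD1 (-1.18), LRRC70 (-1.11), LYRM5 (-1.05), the adaptor STAP1 (-1.05), PIBF1 (-1.04), the calcium-binding protein gene S100Z (-0.97) and NABP1, which encodes a single-stranded DNA-binding protein (-0.97). The 12 genes from CSF1 to NABP1 had limma adjusted p between 0.0295 and 0.0459.

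**Figure D5:**
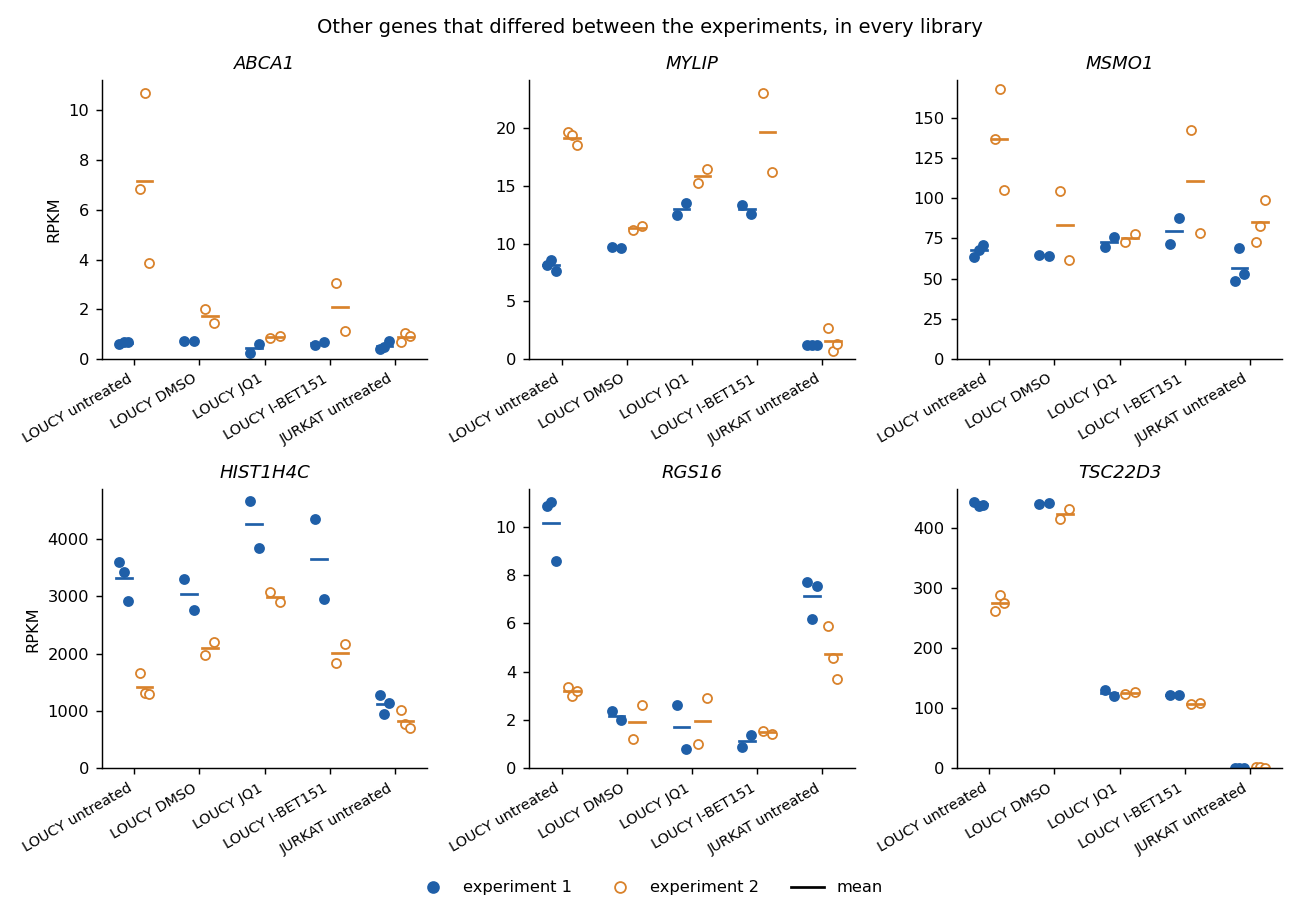
RPKM (vertical axis, starting at 0) of 6 further genes past the threshold in untreated LOUCY, in every library of the groups on the horizontal axis; filled points are experiment 1, open points experiment 2, and bars are means. ABCA1, MYLIP and MSMO1 are lower and HIST1H4C, RGS16 and TSC22D3 higher in every experiment 1 library of untreated LOUCY, and TSC22D3 is at 441.0 and 441.5 RPKM in the DMSO libraries of experiment 1 and at 415.1 and 432.0 in those of experiment 2.

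In the lists of lineage genes, 1 member passed the threshold, beside 0.664% of all tested genes (0.391% higher and 0.273% lower in experiment 1). VPREB1, a surrogate light chain gene, stood at 991.2, 950.3 and 868.2 RPKM against 607.0, 594.0 and 652.9 (log2 0.60, limma adjusted p = 0.0343), 1 of 8 tested B-lineage genes. Its partner IGLL1 stood at 5623, 5035 and 4620 RPKM against 4029, 3893 and 4170 and did not pass (log2 0.33, limma adjusted p = 0.0892). Of 14 tested stem and progenitor factors 0 passed. MYCN stood at 12.1, 12.7 and 12.5 RPKM against 12.7, 11.6 and 7.19, LYL1 at 6.40, 6.85 and 7.50 against 7.46, 6.08 and 4.81, and HHEX at 107.6, 99.9 and 87.8 against 145.2, 163.7 and 97.2. Of 13 tested HOXA cluster genes 0 passed, with HOXA10 the lowest at log2 -0.62 (limma adjusted p = 0.0618). Of 19 tested T-cell identity genes 0 passed, with a median of 0.24 (0.135 with the GC trend removed). CD7 stood at 114.5, 112.6 and 91.0 RPKM against 78.7, 63.7 and 82.0 (log2 0.50, limma adjusted p = 0.0795), and GATA3 at 50.3, 48.9 and 42.4 against 44.0, 50.4 and 47.5. Other lineage and survival genes that did not pass were the progenitor factors LMO2 (log2 -0.18) and RUNX1 (-0.01), the T-cell factor BCL11B (-0.04), the T-cell receptor subunit CD3E (0.18) and the survival gene BCL2 (0.04). The T-cell surface gene CD5 was too low to be tested, at means of 0.296 and 0.313 RPKM. The MAPK phosphatase DUSP6 (-0.49), the nuclear noncoding RNA MALAT1 (0.45) and the chaperone gene HSPA8 (0.09, and -0.05 with quantile normalization) did not pass either. A p above the threshold does not show that these genes were alike. The granule protease gene GZMA, chosen after its values were seen, was lower in experiment 1, at 1189, 1172 and 1108 RPKM against 1781, 1892 and 1550 (log2 -0.59, limma adjusted p = 0.0431).

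Replicate spread was largest for small RNAs. SNORD69, SNORD28, SNORD14B, RNU86 and SNORD77 had the largest SD of log2(RPKM + 1) within experiments among genes of 5 RPKM or more, and RNU86 stood at 27.5, 23.2 and 32.0 RPKM against 3.03, 0 and 21.1. Small nucleolar RNAs mostly lie inside introns of other genes and are short, so their values are uncertain.

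The same contrast in untreated JURKAT asked which shifts were common to both lines. In JURKAT 8 of 11097 tested genes (0.0721%) passed, 2 higher (0.018%) and 6 lower (0.0541%) in experiment 1, and 1964 had an unadjusted p under 0.05 (limma). The count was 1069 without replicate 2 of experiment 1, 54 without replicate 1 of experiment 2 and between 0 and 4 without any other single library. Libraries of experiment 1 lay wholly above those of experiment 2 for 9.19% of genes and wholly below for 10.8%. The p53 list had a median of -0.03 in JURKAT, with 1 of 26 members wholly above and 5 below. JURKAT held CDKN1A at 1.53, 0.652 and 1.07 RPKM in experiment 1 and 2.45, 1.22 and 2.58 in experiment 2. BTG2 (log2 -0.53), GADD45A (-0.40) and DDIT4 (-0.15) also went against their LOUCY direction in JURKAT. Other genes past the threshold in LOUCY kept it, such as RGS16 (0.52), MT2A (0.47), RBM3 (0.44), SLC2A1 (0.38) and MSMO1 (-0.58). None of these genes passed the threshold in JURKAT. Growth lists kept a positive median there, at 0.25 for nucleolar genes (14 wholly above and 0 below), 0.22 for glycolysis (11 and 0) and 0.11 for ribosomal proteins (1 and 2). The JURKAT slopes with GC content were 0.136, -0.068 and 0.117 in experiment 1 and 0.043, -0.109 and -0.12 in experiment 2.

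The difference between the lines was tested directly. The experiment effect was larger in LOUCY than in JURKAT for 3 of 12209 genes (0.0246%) and smaller for 0, with 1008 at an unadjusted p under 0.05 (limma). All 3 were among the p53 targets described. The difference of the effects was 2.30 for CDKN1A (SE 0.29), 1.61 for BTG2 (SE 0.20) and 1.02 for TRIAP1 (SE 0.13) on the log2 scale, with limma adjusted p = 0.0108 for each. For GADD45A it was 1.89 (limma adjusted p = 0.0556). HIST1H4C was at 1275, 943.1 and 1135 RPKM against 1026, 767.6 and 696.4 in JURKAT, and its effect did not differ between the lines past the threshold (0.78, limma adjusted p = 0.313). The count was 0 without replicates 2 or 3 of LOUCY experiment 1, replicate 1 of LOUCY experiment 2 or replicate 3 of JURKAT experiment 1, 5 without replicate 1 of JURKAT in either experiment, and 27 without replicate 3 of LOUCY experiment 2.

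The 12 treated LOUCY libraries came from the same experiments. Averaged over DMSO, JQ1 and I-BET151, 0 of 11565 tested genes differed between the experiments, with 1301 at an unadjusted p under 0.05 (limma), but 994 passed without replicate 2 of I-BET151 in experiment 2 and 0 to 2 without any other single library. The p53 list median was -0.08 in these libraries. With DMSO, CDKN1A stood at 4.27 and 6.84 RPKM in experiment 1 and 4.41 and 6.37 in experiment 2. GADD45A stood at 10.98 and 9.70 against 9.30 and 10.7 RPKM, and TRIAP1 at 72.3 and 65.3 against 86.6 and 66.5 RPKM. Untreated cells of experiment 1 were above every one of these DMSO values, and untreated cells of experiment 2 had CDKN1A at 3.02 to 4.89 and TRIAP1 at 62.8 to 68.4 RPKM. The inhibitor libraries, also in the treated average, differed. CDKN1A means in experiments 1 and 2 were 26.5 and 24.3 RPKM with JQ1 and 23.7 and 22.8 with I-BET151. These were above the untreated experiment 1 mean of 15.3, whereas GADD45A and TRIAP1 stayed below theirs with either inhibitor. RGS16 with DMSO stood at 2.36 and 1.99 against 1.23 and 2.61 RPKM, and TSC22D3 at 441.0 and 441.5 against 415.1 and 432.0. For TSC22D3 the untreated cells of experiment 2 were thus the low group.

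Some other genes kept the direction of the untreated cells with DMSO, without a test of that direction alone. ABCA1 stood at 0.741 and 0.720 RPKM in experiment 1 and 2.00 and 1.44 in experiment 2, MYLIP at 9.67 and 9.60 against 11.2 and 11.6, and HIST1H4C at 3302 and 2765 against 1984 and 2199 RPKM. LYSMD1, LRRC70 and STAP1 were also lower in both DMSO libraries of experiment 1. For others only replicate 1 of experiment 2 was higher. MSMO1 stood at 64.9 and 63.8 against 104.5 and 61.5 RPKM, RGS2 at 11.4 and 12.1 against 25.0 and 10.2. PIBF1 stood at 8.95 and 9.47 against 17.5 and 8.28 RPKM. The GC slopes of DMSO replicates 1 and 2 of experiment 2 were -0.281 and 0.131, and a link to these genes was not tested. The experiment effect differed between untreated and treated LOUCY for 5 of 11565 genes (0.0432%), with 728 at an unadjusted p under 0.05 (limma). It was larger in untreated cells for GADD45A (1.74, limma adjusted p = 0.0119), CDKN1A (1.67, 0.033), TRIAP1 (1.02, 0.0328) and RBM3 (0.81, 0.035). It was smaller for 1 (0.00865%), GEM, a small GTPase named after its values were seen (-1.05, 0.033). BTG2 was just outside, at 1.15 (0.0502). With DMSO as the only treated group none of these 5 genes passed, with limma adjusted p from 0.0612 for TRIAP1 to 0.86 for GEM. The count was 0 without replicate 1 or 2 of untreated experiment 1, and 18 and 15 without I-BET151 replicates 2 and 1 of experiment 2. It was 8 without replicate 3 of untreated experiment 2. It was 1 or 2 without replicate 3 of untreated experiment 1, replicate 1 or 2 of untreated experiment 2, either JQ1 library of experiment 2, or any treated library of experiment 1 other than JQ1 replicate 1.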

How the data were processed

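Per the labels' protocols, polyadenylated RNA was extracted with a column kit, made into cDNA by the Smart-seq2 method from oligo-dT primers and turned into libraries by tagmentation, which does not mark the strand. The authors deposited 1 table of RPKM values. The submitters' processing notes name build hg38 and the tools featureCounts, Subread 1.4.5-p1, STAR 2.5.1b and edgeR 3.10.5. Settings, annotation and the treatment of multiply mapped reads are not given in the sources used. RPKM are relative within a library and do not show total RNA per cell.

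Groups came from the labels. Genes reaching 1 RPKM in 3 or more of the libraries fitted were tested with limma 3.58.1 in R 4.3.3 (empirical Bayes with a mean-variance trend) on log2(RPKM + 1), with two-sided Benjamini-Hochberg adjusted p under 0.05 over all tested genes. The pseudocount of 1 understates changes of low genes. The fit was also run on simulated reads with known changes. These had the same dispersion for every gene, no GC trend between libraries and no outlying replicate. That run therefore cannot show how the fit handles libraries that differ in these ways. Every gene's RPKM came out as whole reads within 0.01 reads (100% of genes), and these reads gave the depths and an alternative test (voom). Positions and GC content were taken from GENCODE for 14841 of 15862 genes (93.6%) by symbol; promoter windows are from RefSeq (GRCh38.p14).

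The genes given by name were the 12 with the largest difference in each direction among those past the threshold, without overlap between groups and at 5 RPKM or more in the higher group (leaving out small RNAs and unnamed, clone-based, antisense-named or pseudogene-named features), a fixed panel, up to 3 members per gene list and direction past the threshold, the 10 highest levels and the 5 largest spreads; others are said to be chosen after their values were seen or are given as examples of a list. The comparison, the 39 lists and the rule were chosen with earlier results of these data known. Lists are described by counts and medians, with no test of a list. Alternatives were another pseudocount, other filters, median and quantile scaling, removal of each library's GC trend, voom, a replicate block, other sets of libraries for the spread, and leaving out each library. Values of a few list members are not reported here.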

Additional observations from a re-analysis of the deposited data

Results flagged for a closer look

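The experiment effect (experiment 1 minus experiment 2, log2) differed between untreated LOUCY and untreated JURKAT by limma's interaction test for BTG2 (1.61), TRIAP1 (1.02) and CDKN1A (2.30). Over 20 alternatives these 3 passed the threshold in 15, 16 and 16, with limma adjusted p from 0.00142 to 0.0665 for BTG2 and CDKN1A and from 0.00193 to 0.079 for TRIAP1.

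The effect differed between untreated and treated LOUCY, by the same kind of test, for GADD45A (1.74), TRIAP1 (1.02), CDKN1A (1.67), GEM (-1.05) and RBM3 (0.81). Over 27 alternatives GADD45A passed in 24, TRIAP1 in 13, CDKN1A and GEM in 12 each and RBM3 in 10, with 0 changes of sign among these genes. Against DMSO alone 0 of the 5 passed (limma adjusted p from 0.0612 to 0.86). GEM stood at 8.02, 6.44 and 8.36 RPKM in untreated experiment 1 and 12.5, 13.6 and 11.7 in experiment 2. With DMSO it stood at 7.60 and 7.82 against 7.72 and 5.99. For RBM3 the DMSO libraries stood at 44.5 and 38.9 against 45.2 and 40.5 RPKM, between the untreated groups of the experiments.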

How the results depend on the processing

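Of 62 named genes tested, 30 passed the threshold in untreated LOUCY. Over all alternatives 0 of these 30 reversed, and 0 passed under every one. CDKN1A, TRIAP1, RGS16 and HIST1H4C passed with 5 of 6 libraries left out in turn and under all 10 other settings. These were the most stable. MYLIP passed in 3 of the 6 left-out fits, and GADD45A, AEN and BTG2 in 2. Others, such as CSF1, TFPI, MSMO1, MT1X, DDIT4 and VPREB1, passed in 1, the fit without replicate 3 of experiment 2. With the GC trend removed the log2 differences of LRRC70, PIBF1, MSMO1 and CSF1 shrank to -0.70, -0.71, -0.71 and 0.65. Those of LYSMD1 and TRIAP1 grew to -1.31 and 1.17, and all of these genes still passed. ABCA1 could not be tested without any 1 library of experiment 2 or with the filter of 5 RPKM, because too few libraries then reached the minimum. In the 3 fits without 1 library of experiment 1 it passed in 0, with log2 differences from -2.22 to -2.18. Under the 9 other settings that could test it, ABCA1 passed in all 9.

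In untreated LOUCY, 73 genes passed. The count was 38 with no filter on low values, 269 with the GC trend removed, 623 by voom on recovered reads (207 higher and 416 lower) and 496 with the spread taken from 12 untreated libraries. Leaving out 1 library gave 0 to 4688. The replicate numbers do not pair the libraries: deviations of same-numbered libraries correlated at 0.047, 0.011 and -0.015, and not every library correlated best with its own number. With a replicate block the count was 616 (259 higher and 357 lower). In JURKAT, 8 genes passed, with 0 without a filter, 15 with a filter of 5 RPKM, 5 with median scaling, 156 with the GC trend removed, 57 by voom and 401 with the replicate block. Leaving out 1 library gave 0 to 1069. For the difference between the lines (3 genes), the filter of 5 RPKM gave 7, GC removal 24, and leaving out 1 library 0 to 27. In treated LOUCY (0 genes), the pseudocount of 0.25, median scaling, the replicate block and DMSO alone gave 1 each, quantile normalization 2, GC removal 24, and leaving out 1 library 0 to 994. For untreated against treated LOUCY (5 genes), no filter gave 9, the filter of 5 RPKM 8, GC removal 24, voom, the replicate block and DMSO alone 1 each, and leaving out 1 library 0 to 18. Where this left 1 sample in a group, it is assumed to vary like the other groups. The cause of these moves was not tested.

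Directions that reversed were all of genes that did not pass. With quantile normalization the log2 differences of HSPA8, IFITM1, TMSB4X and IFITM2 were -0.05, -0.12, -0.06 and -0.04. With the GC trend removed those of MDM2, ERG, LYL1 and IFITM2 were 0.10, -0.01, -0.06 and -0.07. With libraries left out in turn, MDM2 ranged from -0.28 to 0.18, RUNX1 from -0.14 to 0.10, BCL11B from -0.13 to 0.06, GATA3 from -0.05 to 0.07, ERG from -0.01 to 0.10, BCL2 from -0.13 to 0.23, SNORD14B from -1.60 to 0.48, SNORD77 from -0.93 to 0.86 and SNORD28 from -0.88 to 1.32.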
